A study of Mus musculus with 8 samples.

Results

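Cell adhesion molecules of neurons and synapses hold the surfaces of neighbouring cells together and sort which cells form contacts. The set described here comprises 43 mouse genes in 13 families, namely the SynCAM (Cadm), NCAM, L1, contactin, contactin-associated protein, neurexin, neuroligin, FLRT, SALM (Lrfn), sidekick and Dscam, astrotactin and AMIGO families and the pair Alcam and Cd47. Members were chosen by name, and a probe was assigned to a member when its RefSeq accession belonged to that gene. All 43 members had a probe, of 22911 genes that could be named on the array, and 34 of the 43 were bright enough to be compared, of 14840 such genes overall.

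Gene expression was measured on 8 single-color SurePrint G3 Mouse arrays, 4 from Lpcat1 HZ (heterozygous) and 4 from Lpcat1 KO mice, all at postnatal day 8. Strain was C57BL/6 per the labels. Lpcat1 encodes lysophosphatidylcholine acyltransferase 1, which makes phosphatidylcholine with saturated fatty acids, and the deletion was present in every cell of the KO animals, while the HZ controls also carried 1 deleted copy. The KO line was made on C57BL6/N and crossed with C57BL6/J to remove the rd8 mutation, and mice homozygous for rd8 were not used. RNA came from retinal cells enriched with an antibody to CD73, a surface marker of young photoreceptor cells, and how many animals went into an array is not given in the sources used here. The comparison asks whether these adhesion genes differ in photoreceptor cells without LPCAT1 at the age when they begin to die.

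Many of these molecules work in pairs across the cell gap. Neurexins sit mostly on the presynaptic side and bind neuroligins on the other, FLRT proteins bind latrophilins and Unc5 receptors, SALM proteins bind LAR-type receptor phosphatases, and contactins, held in the membrane by a lipid anchor, associate with contactin-associated proteins. Sidekick and Dscam proteins are known in the retina for guiding which layer a neuron contacts and how neurons of a type are spaced, and astrotactins for the attachment of migrating neurons to glia.

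The arrays lay on the same slide, and the KO arrays occupied slide row 1 while the HZ arrays occupied slide row 2. Slide row and genotype cannot be told apart. The replicate number was also the slide column. Values are log2 signals relative to the 75th percentile of each array, which lay between 882 and 1024 intensity units, and between 59.5% and 63.8% of probes were well above background. HZ replicate 4 had 657 spots marked as outliers against 86 to 194 on the other arrays. Lpcat1 itself did not separate the labels. The 4 HZ arrays gave log2 signals of -0.81, -0.95, -1.02 and -1.17, and the 4 KO arrays gave -0.97, -1.16, -1.11 and -0.85. The groups overlapped, with -0.037 between their means (limma adjusted p = 0.930), and where its probe lies relative to the deleted part is not given in the sources used here. All directions below therefore rest on the labels. Nothing states that the arrays of a group came from separate animals, so p-values measure only the spread between these arrays.

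Of the 34 compared members, 12 differed by replicate number, as described further on, and 10 of those had an entry in the RefSeq promoter table (GRCm38.p6, 250 bases before to 50 after the start). The promoters of the contactins Cntn1, Cntn4 and Cntn6 and of Astn1 are shown as examples. All 12 genes were highest on both arrays numbered 2, so this did not set these 4 apart. For genes with several starts the first in the table is shown. Capitals mark CAGCTG, an E-box bound by basic helix-loop-helix factors. They lie at chr15:92050915-92051214, chr6:106118515-106118814, chr6:104492794-104493093 and chr1:158362054-158362353, in this order, all on the plus strand.
Cntn1: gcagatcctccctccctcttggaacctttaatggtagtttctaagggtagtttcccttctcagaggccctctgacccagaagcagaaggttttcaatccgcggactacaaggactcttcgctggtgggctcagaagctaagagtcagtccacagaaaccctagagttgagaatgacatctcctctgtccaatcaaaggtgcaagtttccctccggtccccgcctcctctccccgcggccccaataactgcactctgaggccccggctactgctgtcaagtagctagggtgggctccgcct
Cntn4: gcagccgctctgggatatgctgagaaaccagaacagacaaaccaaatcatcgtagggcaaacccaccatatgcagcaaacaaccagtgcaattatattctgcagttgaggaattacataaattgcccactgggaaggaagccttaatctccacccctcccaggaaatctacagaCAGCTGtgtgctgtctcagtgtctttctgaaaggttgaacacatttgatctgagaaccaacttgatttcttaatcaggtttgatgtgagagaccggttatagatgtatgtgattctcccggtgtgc
Cntn6: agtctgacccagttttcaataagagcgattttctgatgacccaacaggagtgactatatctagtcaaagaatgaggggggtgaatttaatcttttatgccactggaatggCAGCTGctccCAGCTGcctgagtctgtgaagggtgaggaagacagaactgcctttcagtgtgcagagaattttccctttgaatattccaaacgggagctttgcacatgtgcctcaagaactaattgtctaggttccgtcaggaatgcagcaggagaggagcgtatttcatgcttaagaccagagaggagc
Astn1: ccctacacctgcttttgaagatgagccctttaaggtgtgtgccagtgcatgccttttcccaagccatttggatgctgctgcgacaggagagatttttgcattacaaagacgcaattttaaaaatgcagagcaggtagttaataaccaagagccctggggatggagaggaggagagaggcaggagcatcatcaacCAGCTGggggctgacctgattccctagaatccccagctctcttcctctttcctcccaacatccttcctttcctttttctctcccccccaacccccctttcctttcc
The E-box occurred once in the window of Cntn4, at position 175, at positions 111 and 121 in that of Cntn6, at position 195 in that of Astn1, and at 0 positions in that of Cntn1. Over all starts in the table, CAGCTG, which reads the same on both strands, was present in 4 of 15 promoters of the members that differed by replicate number (26.7%, with 2 of the 4 being overlapping windows of Cntn4), in 6 of 35 promoters of compared members (17.1%) and in 16.3% of all 32851 promoters of the same length. The 4 promoters with CAGCTG among the 15 belonged to Cntn4, Cntn6 and Astn1, so the windows of the group's other genes held none. The 4 genes shown thus include every gene of the group in which this E-box was found. For 2 of the 12 there was no promoter to search. TAATCC, the core bound by the photoreceptor factors Crx and Otx2, searched on both strands, was present in 2 of 35 promoters of compared members (5.71%) and in 7.06% of all. It was at 0 positions in the 4 windows shown, so the motifs did not overlap there.

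No adhesion gene was called different between KO and HZ. Differences read from each gene's brightest probe were small: all 34 compared members differed by less than 1.5-fold, and 25 by less than 1.2-fold. At a fold over 1.2 with an adjusted p under 0.05 (limma, Benjamini-Hochberg over 34280 probes), 0 members were called, against 0% of all compared probes, and at a fold over 1.5 with an adjusted p under 0.5, 0 members against 1.04%. The smallest adjusted p of a member was 0.547, that of Sdk1. At an unadjusted p under 0.05 in limma, 0 members were lower and 1 was higher, against 3.49% of all compared probes lower and 4.69% higher. The 4 KO values lay wholly below the 4 HZ values for 1 compared member, Cadm1, against 2.1% of probes, and wholly above them for 0 compared members, against 4.15%.

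More members were lower than higher. Of the 34, 23 were lower in KO. The median of the 34 log2 differences was -0.12, and the extremes were -0.50 for Nlgn3 and 0.41 for Sdk1. The median over all compared probes was 0.0023, with 49.5% lower. The members' median deviation on single arrays had an SD of 0.143 within a group. That is a spread of single arrays, not the error of a difference between group means, and it includes variation shared by arrays of the same number. The median difference depended on the arrays kept. Without HZ replicate 2 it was 0.019, but this removal keeps KO replicate 2, on which members were also high. Without both arrays numbered 2 it was -0.030 with 18 of 34 lower. Without any other single array it lay between -0.14 and -0.062. The median difference was also smaller with normexp background correction, at -0.053 with 19 of 34 lower, and with quantile normalization, at -0.056 with 23 lower. Under normexp the largest difference of a member in either direction was 0.34, 16 of 34 differences were over 1.5 times smaller or of the other sign, and 6 changed sign. In samples of mixed cells, fewer cells of a type and less RNA per cell cannot be told apart.

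**Figure D1:**
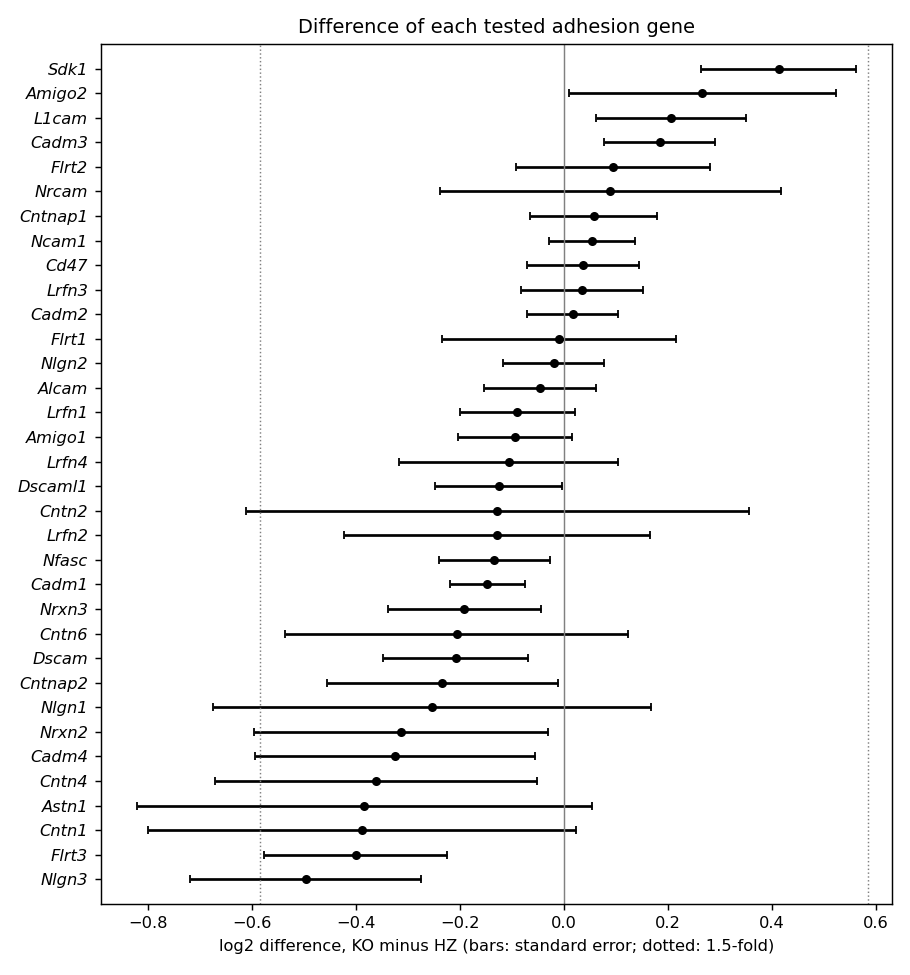
Log2 difference of the 34 compared adhesion genes, KO minus HZ, with standard errors from limma; dotted lines mark a 1.5-fold difference. The differences run from -0.50 for Nlgn3 to 0.41 for Sdk1, and every point lies inside the dotted lines.

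Among the SynCAM proteins, which bind each other across the synapse, Cadm1 was 6.00, 6.00, 5.93 and 6.01 on the HZ arrays and 5.85, 5.79, 5.80 and 5.90 on the KO arrays. The groups did not overlap, although the highest KO value came close to the lowest HZ value. The difference was -0.15 (standard error 0.072), a fold of 1.11, with a limma adjusted p of 0.640, and a dimmer Cadm1 probe gave -0.20. Cadm4, which joins glia to axons, was -0.23, 0.93, 0.31 and -0.15 on the HZ arrays and -0.13, 0.28, -0.15 and -0.44 on the KO arrays. HZ replicate 2 was the highest of all 8 and the groups overlapped, with a difference of -0.33 (standard error 0.27). Dropping HZ replicate 2 changed the Cadm4 difference to -0.086. Dropping KO replicate 2, the highest KO array, changed it to -0.45. Cadm3 differed by 0.18 and Cadm2 by 0.016.

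Sdk1, a homophilic immunoglobulin protein that matches synaptic partners in the inner retina, had the largest higher value. It was -1.62, -1.49, -1.60 and -1.62 on the HZ arrays and -1.11, -1.08, -1.60 and -0.89 on the KO arrays. KO replicates 1, 2 and 4 lay above every HZ array, while KO replicate 3 lay among them. The difference was 0.41 (standard error 0.15, limma adjusted p = 0.547). With normexp it was 0.14. A second Sdk1 probe gave 0.51, and without KO replicate 4 the difference was 0.32 and was no longer past an unadjusted p of 0.05, nor was it without HZ replicate 1 or KO replicate 1. Its relatives Dscam and Dscaml1, which space retinal neurons, differed by -0.21 and -0.13, and Dscam was lower in 4 of 4 pairs of arrays with the same number.

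Flrt3 and Nlgn3 had the lowest values relative to HZ in the reported setting. Flrt3, a ligand of latrophilins and Unc5 receptors, was -1.37, -1.25, -1.18 and -1.30 on the HZ arrays and -1.61, -1.52, -1.36 and -2.21 on the KO arrays. Only KO replicate 3 reached the HZ range and KO replicate 4 lay far below it. The difference was -0.40 (standard error 0.18, limma adjusted p = 0.614), and -0.22 without KO replicate 4. The other FLRT genes, Flrt1 and Flrt2, differed by -0.0097 and 0.094. Nlgn3, a postsynaptic partner of neurexins, was -5.13, -4.47, -5.32 and -5.07 on the HZ arrays and -5.68, -5.17, -5.27 and -5.86 on the KO arrays, so the groups overlapped. Its difference was -0.50 (standard error 0.22, limma adjusted p = 0.619), but its probe was dim and well above background on 3 HZ and 2 KO arrays, and the difference was -0.021 with normexp and -0.31 with quantile normalization. The neuroligin of inhibitory synapses, Nlgn2, differed by -0.020, and Nlgn1, of excitatory synapses, by -0.25.

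**Figure D2:**
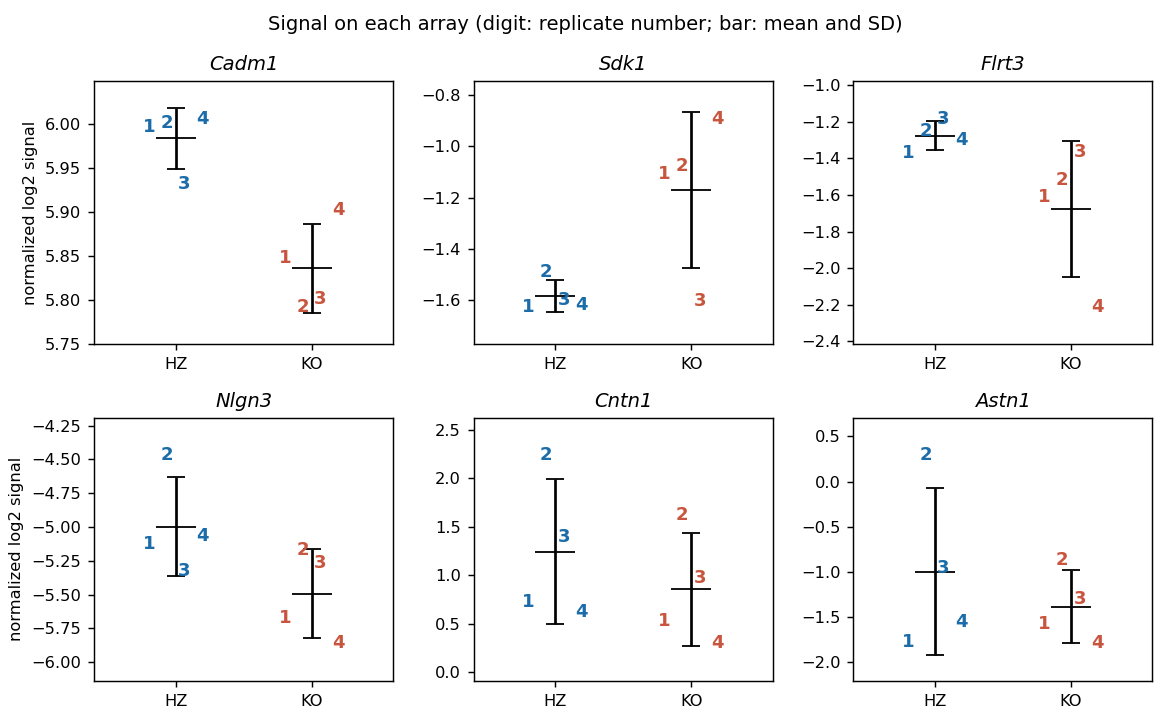
Normalized log2 signal of 6 adhesion genes on each array, by genotype; digits are replicate numbers and bars give the mean and SD of 4 arrays. The groups are apart for Cadm1, KO replicate 3 lies among the HZ arrays for Sdk1, and the arrays numbered 2 are the highest of their group for Nlgn3, Cntn1 and Astn1.

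In the contactin family all 4 compared members were lower in the reported setting, with a median of -0.28, though each group spread widely. With normexp the median was -0.13, and Cntn2 was higher in KO with normexp (0.066) and with quantile normalization (0.051). Cntn1, an axonal contactin, was 0.72, 2.24, 1.40 and 0.62 on the HZ arrays and 0.53, 1.62, 0.97 and 0.30 on the KO arrays. Each KO array was below the HZ array of the same number, yet the groups overlapped over most of their range. The difference was -0.39 (standard error 0.41, limma adjusted p = 0.797). Dropping HZ replicate 2 brought it to -0.058, whereas dropping KO replicate 2 gave -0.64. A dimmer Cntn1 probe gave 0.079. Cntn4 differed by -0.36, Cntn6 by -0.21 and Cntn2 by -0.13, and the Cntn2 probe was well above background on 2 arrays of each group.

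Both neurexins had lower means in KO by their brightest probes. Nrxn2, a presynaptic receptor, was -2.44, -1.27, -2.20 and -2.28 on the HZ arrays and -2.38, -1.90, -2.40 and -2.78 on the KO arrays. HZ replicate 2 stood above the other arrays, and the difference was -0.31 (standard error 0.28). Leaving out HZ replicate 2 shrank the Nrxn2 difference to -0.054, while leaving out KO replicate 2 widened it to -0.47. A dimmer Nrxn2 probe gave 0.20. Nrxn3 differed by -0.19. Cntnap2, which gathers potassium channels beside the node of Ranvier, was -2.36, -1.39, -2.29 and -2.24 on the HZ arrays and -2.33, -2.04, -2.39 and -2.45 on the KO arrays. Here too HZ replicate 2 was far above the rest, and the difference was -0.23 (standard error 0.22). It was -0.0066 without that array and -0.32 without KO replicate 2, and a dimmer Cntnap2 probe gave 0.23. Cntnap1 differed by 0.057.

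Astn1, an astrotactin with which migrating neurons grip glial fibres, was -1.78, 0.29, -0.96 and -1.55 on the HZ arrays and -1.58, -0.87, -1.30 and -1.79 on the KO arrays. Its difference of -0.38 (standard error 0.44) became 0.046 without HZ replicate 2, the highest array, and -0.56 without KO replicate 2. With normexp it was -0.086. Lrfn2, a SALM that binds NMDA receptors, was -3.83, -2.69, -2.59 and -3.41 on the HZ arrays and -3.46, -3.24, -3.50 and -2.83 on the KO arrays, with a difference of -0.13 (standard error 0.29) and groups that overlapped throughout. It was 0.052 without HZ replicate 3. The other compared SALM genes differed by -0.11 to 0.034. Amigo2, a leucine-rich repeat adhesion protein, was -4.25, -3.54, -4.36 and -4.37 on the HZ arrays and -4.35, -3.38, -4.01 and -3.71 on the KO arrays. Its difference was 0.27 (standard error 0.26), with the arrays numbered 2 the highest of each group. It was 0.0069 with normexp, 0.46 without HZ replicate 2 and 0.10 without KO replicate 2.

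The NCAM and L1 proteins, Alcam and Cd47 differed by 0.21 or less. Ncam1, a homophilic adhesion molecule, was 5.75, 5.92, 5.87 and 5.97 on the HZ arrays and 5.86, 6.01, 5.94 and 5.93 on the KO arrays, a difference of 0.054 (standard error 0.083) with overlapping groups. L1cam, which acts in axon growth, was -1.49, -1.56, -1.09 and -1.54 on the HZ arrays and -1.33, -0.93, -1.20 and -1.39 on the KO arrays. HZ replicate 3 lay among the KO arrays, and the difference was 0.21 (standard error 0.14), or 0.11 without KO replicate 2. Of its relatives on axons, Nrcam differed by 0.089 and Nfasc, which anchors the axon initial segment, by -0.13. Alcam, a homophilic surface protein, was -0.60, -0.34, -0.52 and -0.70 on the HZ arrays and -0.69, -0.64, -0.41 and -0.61 on the KO arrays, a difference of -0.046 (standard error 0.11) with groups that overlapped. Cd47, the ligand of Sirpa, differed by 0.036.

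A gene's probes did not always move the same way. Of 19 compared members with more than 1 compared probe, 11 had probes that differed in direction, among them L1cam, with differences from -0.25 to 0.49, Flrt2, from -0.82 to 0.094, and Amigo1, from -0.094 to 0.56. The dimmer probes at 0.49 for L1cam and 0.56 for Amigo1 had unadjusted limma p of 0.039 and 0.017. That at -0.82 for Flrt2 had 0.11. The counts of members above use only the brightest probes.

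The other 9 members were too dim to compare. Ncam2, Cntn3 and Lrfn5 were well above background on 0 arrays. Chl1 and Amigo3 were above it on 2 HZ arrays and 1 KO array, Cntn5 on 1 array of each group, and Sdk2 on 1 KO array. Cntnap4, a contactin-associated protein of interneurons, was above background on 3 HZ arrays and 0 KO arrays, with a mean of -4.92 in HZ and -6.50 in KO. The bound on its means was at least 1.65-fold higher in HZ. Its groups overlapped, with HZ replicate 2 at -6.17 and KO replicate 1 at -5.61. Astn2 was above background on 3 KO arrays and 0 HZ arrays. Its KO values, from -5.77 to -5.12, lay above its HZ values, from -6.35 to -5.79, though KO replicate 4 came close to the highest HZ array. Its bound was at least 1.13-fold higher in KO. These bounds set the brighter group's mean against the higher of the dim probe's own signal and the lowest signal well above background on each array, and neither was tested.

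With the replicate number as a block, which compares each KO array with the HZ array in the same slide column, 5 members passed an unadjusted p of 0.05 in limma. Cntn1, Cntn4, Nlgn3 and Flrt3 were lower, 4 of 34 against 6.06% of all compared probes, and Sdk1 was higher, 1 of 34 against 5.83%. In this order, their standard errors were 0.096, 0.12, 0.16, 0.15 and 0.14 with the block. Without it they were 0.41, 0.31, 0.22, 0.18 and 0.15, and the standard errors of single genes above are without it. The unadjusted limma p of Cntn1 with the block was 0.0099. The smallest adjusted p of a member in this fit was 0.351, so 0 members were called. Cadm1, Nfasc, Cntn1, Cntn4, Flrt3 and Dscam were lower in 4 of 4 pairs, and 0 members were higher in 4 of 4.

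Members varied with replicate number too. In a limma F test for replicate number, with genotype in the fit, 12 of 34 members (35.3%) had an unadjusted p under 0.05, against 13.8% of all compared probes. They were the contactins Cntn1, Cntn4 and Cntn6, the L1 family member Nrcam, the presynaptic and axonal proteins Nrxn2 and Cntnap2, the neuroligin Nlgn1, Flrt1, Astn1, Cadm4, Amigo2 and Lrfn4, a SALM that organizes presynaptic terminals. The smallest adjusted p was 0.273, over members and over all probes alike, and 0 probes passed 0.05. This test and the group of 12 were chosen after the data had been seen, and the values that follow describe the group.

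All 12 were highest on HZ replicate 2 within HZ and on KO replicate 2 within KO. Counting without the test, 16 of 34 members (47.1%) were highest on both arrays numbered 2, against 15.4% of all compared probes, with Cntn2, Lrfn3, Nlgn3 and Flrt2 joining the 12. HZ replicate 2 exceeded the mean of the other HZ arrays by a median of 0.93 over the 12 genes, and KO replicate 2 exceeded the other KO arrays by 0.60. For the other 22 compared members these medians were 0.090 and 0.033, and over all compared probes -0.00097 and -0.0049.

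**Figure D3:**
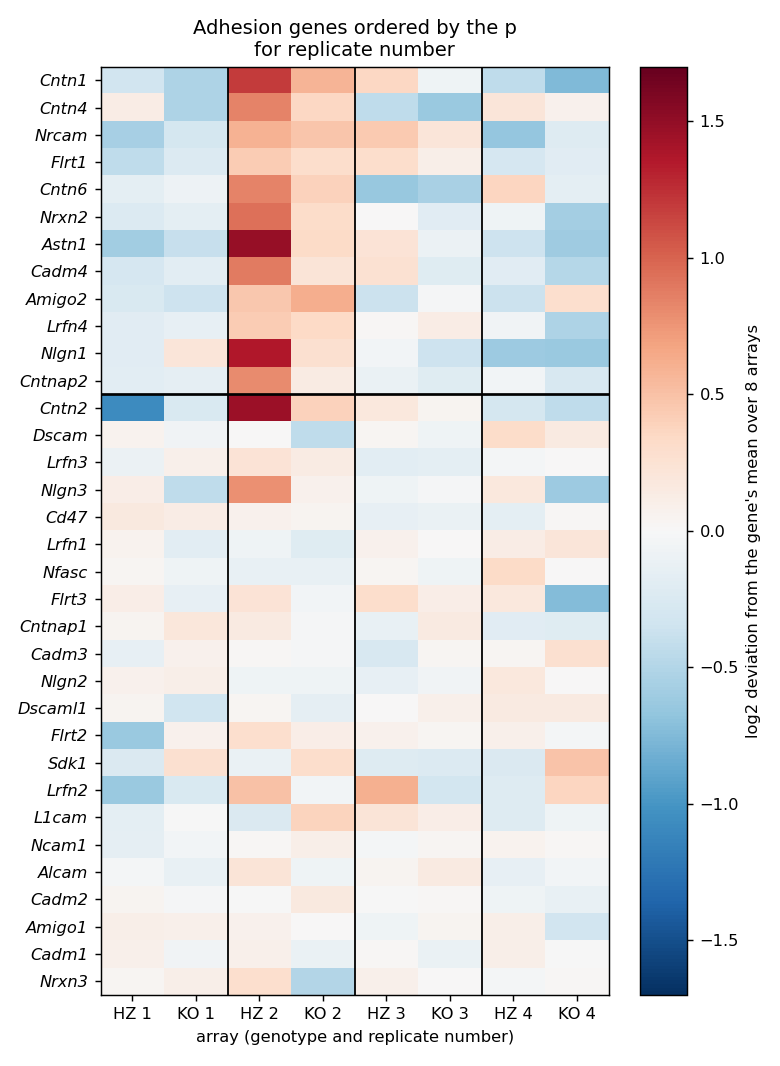
Log2 deviation of each compared adhesion gene from its mean over 8 arrays, with the arrays of the same replicate number side by side; genes are ordered by the limma p for replicate number and the 12 above the line are under 0.05. The arrays numbered 2 are the highest of their genotype in all 12 rows above the line.

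Cntn1 showed it most clearly. HZ replicate 2 lay 1.32 above the other HZ arrays and KO replicate 2 lay 1.02 above the other KO arrays (limma unadjusted p = 4.3e-04 and adjusted p = 0.273 for replicate number). The replicates numbered 3 came next in both genotypes. For Astn1 the same distances were 1.72 and 0.69, for Nlgn1 1.65 and 0.54, for Nrxn2 1.04 and 0.62, for Cntn6 0.99 and 0.66, and for Cadm4 0.96 and 0.52. Nrcam, an L1 family protein of axons, was 0.15, 1.31, 1.16 and 0.061 on the HZ arrays and 0.42, 1.19, 0.93 and 0.50 on the KO arrays, so replicates 2 and 3 were both high. Cntn4 and Cntn6 differed in this, with replicate 3 the lowest of each group. Cntn4 was at -4.19, -3.47, -4.74 and -4.10 on the HZ arrays and -4.83, -3.95, -4.93 and -4.24 on the KO arrays.

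Of the 12, 4 had another compared probe. It was also highest on both arrays numbered 2 for Cntn1, Cntnap2 and Nrxn2, and was not for Flrt1. Members that did not follow included Nrxn3, which was 2.51, 2.76, 2.56 and 2.45 on the HZ arrays and 2.57, 1.98, 2.48 and 2.50 on the KO arrays, highest on replicate 2 in HZ and lowest on it in KO. Dscam was lower on both arrays numbered 2, by 0.14 and 0.44 on the log2 scale. The 12 genes had a median difference between KO and HZ of -0.24, with 10 of 12 lower, against -0.068 and 13 of 22 lower for the other compared members.

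**Figure D4:**
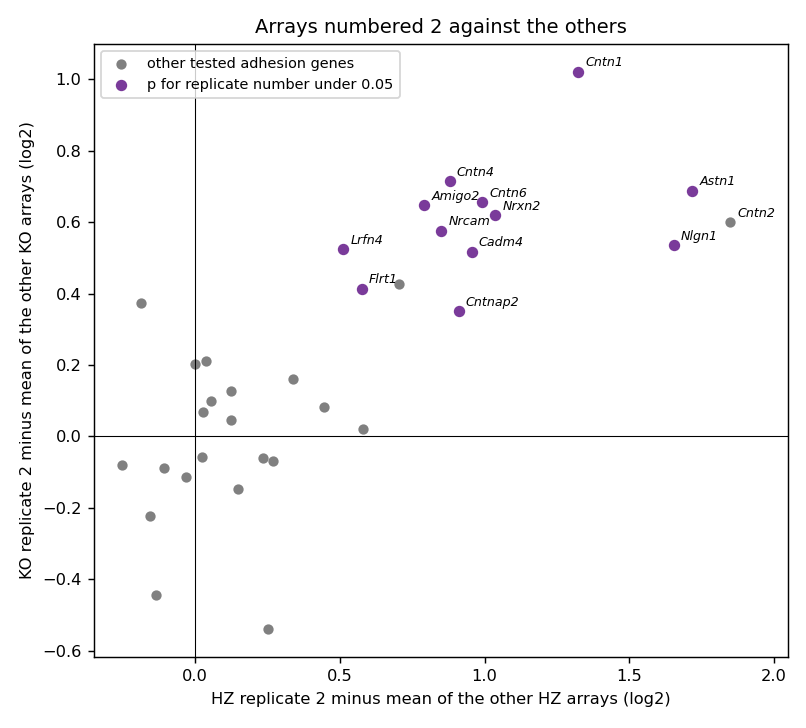
Distance of replicate 2 from the mean of the other arrays of its genotype, HZ on the horizontal and KO on the vertical axis, both log2; each point is a compared adhesion gene. The 12 genes with an unadjusted limma p under 0.05 for replicate number lie in the upper right, from 0.51 in HZ for Lrfn4 to 1.72 for Astn1.

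Many single markers of other retinal cells were highest on the same arrays, though the summed level of a list was not always so. Müller glia markers, 11 of 11 compared, were highest on both arrays numbered 2 in 8 cases, and their medians there lay 0.99 and 0.63 above the other arrays of HZ and KO. Their summed level, in multiples of each array's 75th percentile signal, was 37.3 to 46.5 in HZ and 31.0 to 46.6 in KO. Progenitor markers were highest on both in 4 of 4 compared, by 1.5 and 1.27, with summed levels of 0.815 to 3.65 and 0.473 to 2.59, and Fgf15 was not above background. Bipolar cell markers were highest on both in 5 of 9, with summed levels of 73.9 to 121 and 63.8 to 83.6. The bipolar sums were not highest on these arrays, at 89.4 on HZ replicate 2 and 76.3 on KO replicate 2. Ganglion cell markers were highest on both in 4 of 5 compared of 11, with sums of 6.00 to 15.2 and 3.01 to 9.11. The ganglion sum on HZ replicate 2, 6.00, was the lowest in HZ, and that on KO replicate 2 was 6.70. Rbpms, Pou4f2, Pou4f3, Nefl, Sncg and Thy1 were not above background.

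Among the remaining lists, amacrine markers were highest on both in 2 of 4 compared (sums of 54.7 to 57 in HZ and 53.8 to 66.9 in KO, with Gad1, Tfap2a, Tfap2b and Slc18a3 not above background) and horizontal cell markers in 2 of 3 (1.86 to 5.02 and 1.59 to 3.10, with Lhx1 and Calb1 not above it). Vascular markers were so in 3 of 6 (1.04 to 3.34 and 1.14 to 2.18, with Cdh5 and Tek not above it) and cone markers in 1 of 9 (83.0 to 171 and 135 to 188). The cone medians on the arrays numbered 2 still lay 0.85 and 0.18 above the other arrays of HZ and KO. The highest cone sum was on HZ replicate 3 in HZ and on KO replicate 2 in KO. Counts of markers highest on both arrays numbered 2 were 0 for rod markers, of 17, for microglia markers, of 11, and for red blood cell markers, of 3. All 17 rod markers were well above background on enough arrays to be compared, with sums of 1362 to 1692 in HZ and 1331 to 1541 in KO. The defining rod markers were thus present. The part of other cells in the adhesion gene pattern was not tested.

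**Figure D5:**
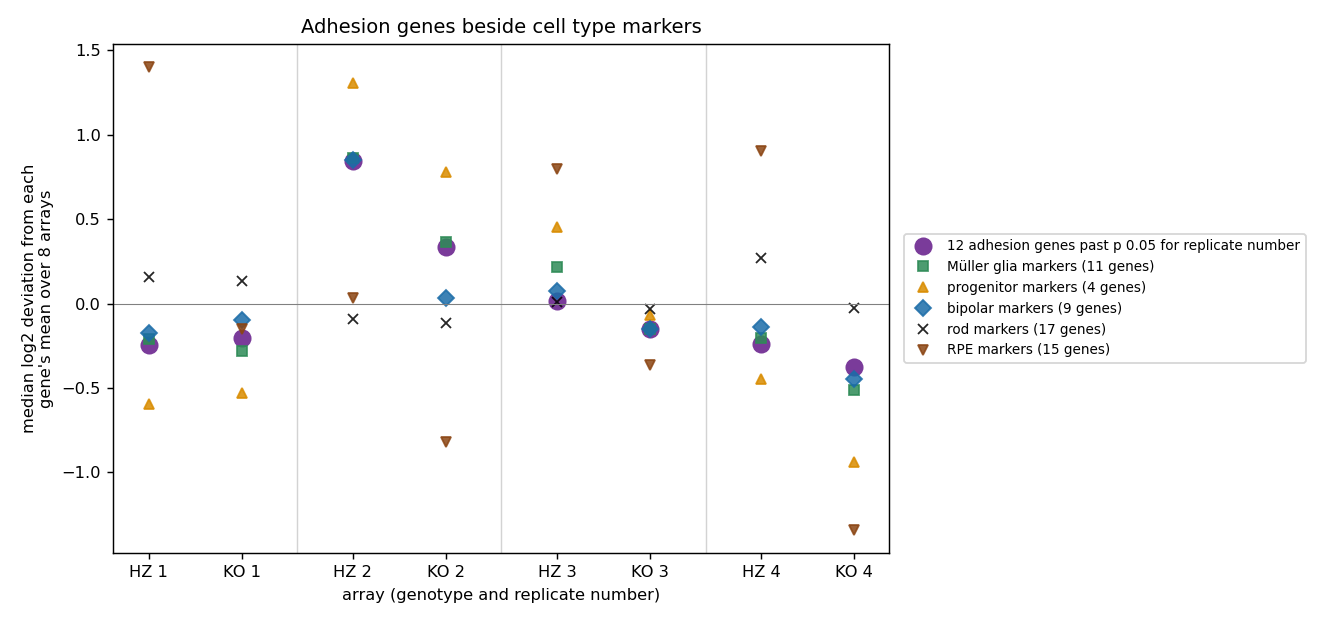
Median log2 deviation from the mean over 8 arrays for the 12 adhesion genes that varied with replicate number and for 5 marker lists; each symbol is a list on an array. On HZ replicate 2 the adhesion genes, the bipolar and the Müller glia markers lie near 0.85, while the rod markers lie at -0.093.

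Between genotypes, markers of the retinal pigment epithelium (RPE) were lower in KO in 15 of 15 compared, with a median of -1.45 and sums of 15.9 to 43.0 in HZ and 8.11 to 15.1 in KO. RPE markers were highest on both arrays numbered 2 in 0 of 15 cases, and Lrat was not above background. Microglia markers were higher in KO, with a median of 0.81 (2.54 to 6.30 and 4.32 to 8.14), and red blood cell markers by 1.58 (0.205 to 0.583 and 0.314 to 2.12). Müller glia, bipolar, ganglion and progenitor markers had medians of -0.27, -0.39, -0.32 and -0.36, cone markers 0.31 and rod markers -0.072. These differences stand beside the lower median of the adhesion genes, and their part in it was not tested.

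Binding partners of the adhesion molecules were compared in the same fit. Of 58 partner genes (latrophilins and Unc5 receptors, teneurins, other neurexin or neuroligin partners, LAR-type receptor phosphatases with Slitrk ligands, Elfn and Lrit proteins of the photoreceptor synapse, netrin-G proteins with their ligands, intracellular scaffolds, and Sirpa), 50 were compared. Their median difference was 0.023, with 23 lower and 27 higher. At an unadjusted p under 0.05 in limma, 0 were lower and 5 were higher, against 3.49% and 4.69% of all compared probes, and 7 were without overlap and higher, against 4.15%. None was called at either pair of thresholds, and the smallest adjusted p was 0.440.

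The partners past an unadjusted p of 0.05 and a fold of 1.2 were Lrrtm3, a postsynaptic neurexin ligand, Epb41l3, which ties SynCAM proteins to the membrane skeleton, the scaffold Dlg2, and Cbln1, a secreted bridge between neurexins and glutamate delta receptors. Their differences were 0.73 (standard error 0.25), 0.40 (0.11), 0.37 (0.13) and 0.30 (0.10), with limma adjusted p of 0.532, 0.440, 0.545 and 0.532, and for all 4 the KO arrays lay above the HZ arrays. With normexp these differences were 0.25 for Lrrtm3, 0.032 for Epb41l3 and 0.20 for Dlg2, and Cbln1 changed sign to -0.0056. Lrrtm3 was well above background on 3 HZ and 4 KO arrays. The fifth partner past an unadjusted p of 0.05, the netrin-G protein Ntng2, differed by 0.24. The 5 Elfn and Lrit genes differed by -0.24 to 0.041, and 0 of them were highest on both arrays numbered 2. By replicate number, 10 of 50 partners (20%) had an unadjusted p under 0.05 in the limma F test, against 13.8% of all compared probes, and 16 (32%) were highest on both arrays numbered 2, against 15.4%. Of the teneurins, which bind latrophilins, 3 were compared and differed between genotypes by -0.29 to -0.086. With the replicate number as a block, 1 of 50 partners was lower at an unadjusted limma p under 0.05, against 6.06% of all compared probes, and 7 were higher, against 5.83%. The lower one was the teneurin Tenm4, at -0.26 and lower in 4 of 4 pairs, and Tenm4 also passed the F test for replicate number.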

How the data were processed

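The 8 arrays were grouped by their labels, 4 HZ and 4 KO. The authors deposited the signal intensity of each spot, already background-subtracted by Agilent Feature Extraction 10.7.1.1 per the file headers and the submitters' processing notes, and their own log2 values, shifted in GeneSpring to the 75 percentile, which were used as an alternative. Intensities were put on the log2 scale and the 75th percentile of the 59305 non-control spots was subtracted within each array. Spots marked as outliers were dropped, and repeated spots were averaged by probe. Probes were named through RefSeq accessions and the gene symbols of RefSeq for GRCm38.p6, and 32994 of 56605 probes matched. A probe was compared if well above background on at least 4 of 8 arrays with at least 3 values in each group (34280 probes), and a gene was read from its probe with the highest mean. The comparison of genotypes used limma 3.58.1 (lmFit, eBayes, two-sided) under R 4.3.3, with files read by the R package data.table, version 1.17.8. P-values were adjusted by Benjamini-Hochberg over these probes, and the procedure was tested on simulated data. Plots came from matplotlib 3.10.9. The number of arrays limits the precision.

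The members and the partner and marker lists were chosen with earlier results of these data known. Values on every array are given for members past an unadjusted p of 0.05, members without overlap and the largest difference in each family, with some further members chosen after their values were seen. Of the partners, those past an unadjusted p of 0.05 and a fold of 1.2 are named. Arrays with the same number deviated together from their group means (r of 0.172 to 0.337 in 4 of 4 pairs, against -0.337 to 0.117 between different numbers). Centring on group means lowers the values between different numbers when those of the same number are positive. The number is also the slide column, and whether it marks paired samples is not given in the sources used here. Alternatives were quantile normalization, normexp with an offset of 50 on the median signal, a percentile taken over probes detected on all arrays, a stricter filter or none, trend and robust eBayes, the methods' t-test, the replicate block, the deposited log2 values, the mean of a gene's probes, and each array left out. Leaving out both arrays numbered 2 and the replicate number test were added after seeing the data.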

Additional observations from a re-analysis of the deposited data

Results flagged for a closer look

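In 5 of 70 groups of 4 arrays checked, the highest or lowest array stood apart from the rest by more than Dixon's critical value for the gap over the range, and chance gives about 5% of groups, or 3.5. Cadm1 was 5.93 on HZ replicate 3 against 6.00 to 6.01 on the other HZ arrays. L1cam was -1.09 on HZ replicate 3 against -1.56 to -1.49. Cntnap2 was -1.39 on HZ replicate 2 against -2.36 to -2.24, and Amigo2 was -3.54 on the same array against -4.37 to -4.25. Nrxn3 was 1.98 on KO replicate 2 against 2.48 to 2.57 on the other KO arrays.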

How the results depend on the processing

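The count of members past fold 1.5 and an adjusted p of 0.5 was 0 under every alternative run. The count past an unadjusted p of 0.05, 1 as reported, was 2 with quantile normalization, with the stricter filter and with the methods' t-test, 3 without a filter and with trend and robust eBayes, 4 with the percentile over probes above background on all arrays, 5 with the replicate block, and 0 with the mean of a gene's probes and without both arrays numbered 2. With each array left out it ran from 0 to 2, and was 0 when HZ replicate 1, KO replicate 1 or KO replicate 4 was dropped. Members without overlap, 1 as reported, were 2 without a filter, 0 with the mean of a gene's probes and 1 to 3 with each array left out. The median difference ran from -0.14 to 0.019 with each array left out, and changed sign without HZ replicate 2. Quantile normalization gave a median of -0.056 and normexp one of -0.053. The count for replicate number, 12 as reported, ran from 6 to 12 with each array left out (6 without HZ replicate 2, 7 without HZ replicate 3 or KO replicate 3) and was 10 to 12 under other normalizations, where 14 to 16 members were highest on both arrays numbered 2. Among all 34 compared members, 8 changed sign with normexp or quantile normalization. These were Cntn2 (0.066 and 0.051), Flrt1 (0.014 and 0.18), Nrcam (-0.0050), Nlgn2 (0.024) and Amigo1 (0.088) with normexp or both, Cadm2 (-0.054) with quantile normalization, and Ncam1 and Alcam. Of the members with values on every array by rule, Ncam1 was -0.0069 with quantile normalization, Alcam 0.11 with normexp, Alcam 0.021, Astn1 0.046 and Lrfn2 0.016 without HZ replicate 2, and Lrfn2 0.052 without HZ replicate 3. Over the arrays left out, Alcam ran from -0.10 to 0.021, Astn1 from -0.64 to 0.046 and Lrfn2 from -0.36 to 0.052. The causes were not tested. Genes with dim probes, such as Nlgn3 and Cntn2, are limited by signal near background.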
